A study of Homo sapiens with 4 samples.

Results

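IL1A, IL1B, IL6, IL8, CXCL1, CXCL2, CXCL3, CCL20, NFKBIA and TNFAIP3 are 10 genes of the inflammatory NF-κB programme. They were chosen by name, as every probe for expressed RNA on the arrays that carried 1 of these 10 names. Earlier results of these data were known when these genes were chosen. They were measured by 13 probes on 40 spots of each array, out of 41000 probes, 43376 spots and 30982 gene names. FaDu, an established line from a squamous cell carcinoma of the hypopharynx, and HSC3, an established squamous cell carcinoma line of the tongue, were each transfected with miR-489 or miR-504. RNA was taken 72 h later, labelled with Cy5 and hybridised on 1 array per condition against Cy3-labelled RNA of control miRNA transfectants of that line. There were thus 4 arrays and 8 channels, with 2 control channels and 2 miRNA transfectants per line. Both lines were given the RNA by transient transfection, no array was dye-swapped, and the labels do not say whether the 2 controls of a line were separate cultures.

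NF-κB is a family of transcription factors held in the cytoplasm by inhibitor proteins until signals such as IL-1 or TNF lead to their destruction. Once in the nucleus it switches on interleukins and chemokines, which act on neighbouring cells and attract leukocytes, and it also switches on its own inhibitors, so that the response ends itself. Squamous carcinoma cells are known to make many of these factors without any added stimulus.

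The transfected miRNAs are shown because every contrast below rests on them. RefSeq (GRCh38.p14) lists 1 mature miRNA for the gene of miR-489 and a pair for that of miR-504, and the labels do not name the arm of miR-504. The capitals mark the seed, bases 2 to 8 from the 5′ end, and no seed is shared. The miR-489 sequence lies at chr7:93483947-93483968 on the minus strand, and the miR-504 arms at chrX:138667760-138667781 and chrX:138667724-138667744, also on the minus strand.
hsa-miR-489-3p: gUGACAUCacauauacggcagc
hsa-miR-504-5p: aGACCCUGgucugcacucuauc
hsa-miR-504-3p: gGGAGUGCagggcaggguuuc

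CXCL8, the current symbol of IL8, lies with CXCL1, CXCL3 and CXCL2 in 1 stretch of chromosome 4 between bases 73740569 and 74099195 of GRCh38.p14. IL1A and IL1B are near neighbours on chromosome 2. The κB consensus, the sequence NF-κB is known to bind, was searched on both strands of the RefSeq promoter window of each gene, from 250 bases before to 50 after a RefSeq start. That start was the first base of the gene except for TNFAIP3, where it lies 910 bases inside the annotated gene, so that both TNFAIP3 matches printed below are downstream of the first annotated base. It was present in 7 of the 10 windows, against 5.909% of 35116 windows of all genes. IL8, IL1A and IL1B had no match within these bases. A looser pattern, the consensus with any base allowed at its middle positions, was in 8 of the 10 windows (these 7 and IL8) and in 58.668% of all windows. A match describes the letters and not binding.

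The matches are printed so that their letters can be compared. CXCL1, CXCL2 and CXCL3 have the same κB letters at nearly the same distance from their starts (−79, −78 and −79). The matches of CCL20 (−79), NFKBIA (−81) and IL6 (−73) lie at like distances. Whether a match bears on the level of a gene was not tested. Each line gives 30 bases on the strand of the gene, with the match in capitals. The CXCL1 bases are chr4:73869304-73869333 (plus strand), those of CXCL2 chr4:74099254-74099283 (minus strand) and those of CXCL3 chr4:74038749-74038778 (minus strand). Those of IL6 are chr7:22727117-22727146 (plus strand), those of CCL20 chr2:227813753-227813782 (plus strand), those of NFKBIA chr14:35404811-35404840 (minus strand), and those of TNFAIP3 chr6:137867182-137867211 and chr6:137867194-137867223 (plus strand).
CXCL1: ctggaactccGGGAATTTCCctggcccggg
CXCL2: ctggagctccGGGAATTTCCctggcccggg
CXCL3: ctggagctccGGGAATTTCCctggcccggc
IL6: tatcaaatgtGGGATTTTCCcatgagtctc
CCL20: tgatcaatggGGAAAACCCCatgtggcaac
NFKBIA: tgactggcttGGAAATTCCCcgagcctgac
TNFAIP3, first match: acgtgactttGGAAAGTCCCgtggaaatcc
TNFAIP3, next match: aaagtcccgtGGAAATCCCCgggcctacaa

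Across the arrays 58.2% to 59.2% of spots were well above background in Cy3 and 61.2% to 62.6% in Cy5, and no spot was saturated. Of the squamous markers, 7 of 7 found on the array (KRT5, KRT14, KRT17, CDH1, TP63, SFN and DSG3) were well above background in the control channel of all 4 arrays. The leukocyte genes PTPRC and CD3E, the endothelial genes PECAM1 and CDH5 and the fibroblast genes COL1A2 and PDGFRB were above background on none. The macrophage-associated CD14 and CD68 were above background on all 4 arrays. The signals below are background-subtracted median spot intensities in scanner units, the mean over the spots where a probe has several. FaDu values precede HSC3 values, and within a line the miR-489 array precedes the miR-504 array. Levels are log2 signals relative to the median of the channel, and a gene is represented by its brightest probe.

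In control transfectants, IL1A, IL1B, IL8, CXCL1, CXCL2, CXCL3, NFKBIA and TNFAIP3 were higher in HSC3 than in FaDu, whereas the difference of IL6 did not pass the test and CCL20 could be given only as a bound. The largest differences were those of 3 neutrophil attractants that act on the receptor CXCR2. CXCL1 was 38.6-fold, CXCL2 33.4-fold and CXCL3 19.6-fold higher in HSC3. Of the 9 genes that could be tested, 8 were called higher in HSC3 by limma and none lower, whereas 20.7% of the 15731 genes tested were called higher and 28.3% lower (49% in either direction). In bulk RNA, more cells that make a transcript and more transcript per cell cannot be told apart.

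IL1A encodes a cell-associated alarm cytokine of epithelial cells. Its control signal, the mean of 10 spots, was 507 and 939 in FaDu and 2921 and 2423 in HSC3. Both HSC3 controls lay above both FaDu controls, 3.32-fold in the means (log2 difference 1.73 ± 0.32, SE, 2 arrays per line, limma adjusted p = 0.00409).

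IL1B encodes the secreted IL-1 that acts on the same receptor. The control signals were 2394 and 4325 in FaDu and 18376 and 13715 in HSC3, again over 10 spots, and the lines did not overlap. The difference was 4.25-fold (log2 2.09 ± 0.33, SE, limma adjusted p = 0.00224). On the HSC3 miR-489 array, 4 of the 10 Cy3 spots were bright enough that the scanner software had scaled them up from a scan at lower gain.

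IL6, the cytokine that signals through gp130 to STAT3, was the exception. Its control signals over 10 spots were 228 and 80.3 in FaDu and 965 and 215 in HSC3, so the lower HSC3 control fell within the FaDu range. The 2.92-fold difference (log2 1.54 ± 0.77, SE) was not called, with a limma adjusted p of 0.140 and a 95% interval of −0.29 to 3.38. Without the HSC3 miR-504 array, IL6 was called higher in HSC3 as well.

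IL8 encodes a neutrophil attractant that acts on CXCR1 and CXCR2. The control signals were 40 and 112 in FaDu and 1207 and 560 in HSC3. The FaDu signals were low but well above background, and all HSC3 signals exceeded them, 10.6-fold in the means (log2 3.40 ± 0.56, SE, limma adjusted p = 0.00276).

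CXCL1, a further neutrophil attractant, had control signals of 542 and 1611 in FaDu and 72912 and 24155 in HSC3. The lower HSC3 control exceeded the higher FaDu control 11.7-fold. The log2 difference was 5.27 ± 0.67 (SE, limma adjusted p = 0.000963). All CXCL1 signals of HSC3, in both dyes, had been scaled up from the scan at lower gain, so their size rests on that scaling.

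CXCL2 had control signals of 180 and 222.5 in FaDu and 14406 and 4195 in HSC3, a log2 difference of 5.06 ± 0.57 (SE, limma adjusted p = 0.000615). A different CXCL2 probe gave 54 and 100 in FaDu and 6015 and 1562 in HSC3, a 35.8-fold difference. For CXCL2, both probes thus gave like folds.

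CXCL3 had control signals of 49 and 50.5 in FaDu and 2053 and 629.5 in HSC3, a log2 difference of 4.30 ± 0.54 (SE, limma adjusted p = 0.000963). Its other probe was not well above background in FaDu and gave 594 and 161 in HSC3, at least 12.5-fold higher. CXCL1, CXCL2 and CXCL3 are close relatives in sequence, and cross-hybridisation between them was not tested.

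CCL20 encodes the ligand of CCR6, which attracts dendritic cells and Th17 lymphocytes. In FaDu its control signals, 17.5 and 4, were not well above background, whereas those of HSC3 were 168.5 and 102.5. CCL20 therefore has only a bound and no test, at least 5.32-fold higher in HSC3, taken against the lowest signal well above background on each FaDu array or the signal of CCL20 itself where that was higher.

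NFKBIA encodes IκBα, the inhibitor that NF-κB induces first to shut itself down. Its control signals were 9789 and 9620 in FaDu and 21366 and 19873 in HSC3, and the lines did not overlap. This was the smallest of the called differences, 1.82-fold (log2 0.87 ± 0.17, SE, limma adjusted p = 0.006).

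TNFAIP3 encodes A20, a ubiquitin-editing enzyme that blocks signalling upstream of NF-κB. The control signals were 186 and 248 in FaDu and 921.5 and 1590.5 in HSC3, a 4.84-fold difference (log2 2.28 ± 0.23, SE, limma adjusted p = 0.000433). A dimmer TNFAIP3 probe gave 25 and 42.5 in FaDu, where the first signal was not well above background, and 124 and 178 in HSC3, a bound of at least 3.92-fold. TNFAIP3 was the only 1 of these genes tested whose higher HSC3 control was that of the miR-504 array.

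**Figure D1:**
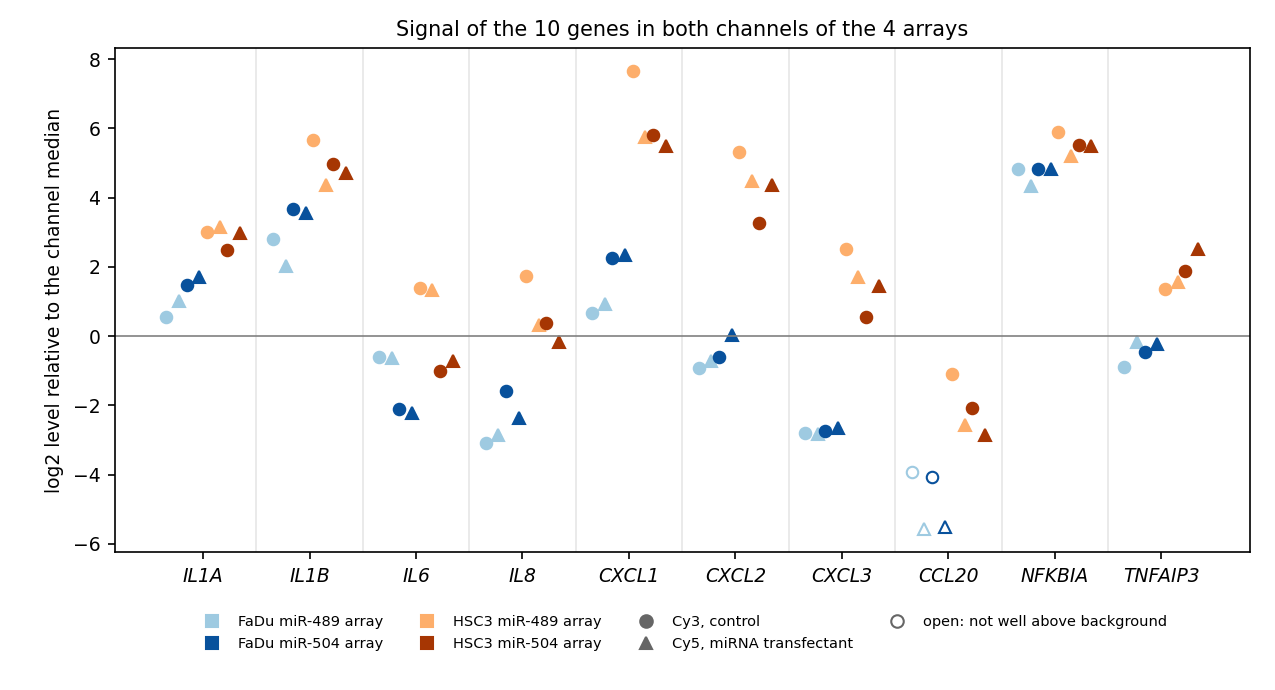
Level of each of the 10 genes in each channel, as log2 signal relative to the median of the channel (y axis), with circles for Cy3 controls and triangles for Cy5 miRNA transfectants, coloured by array; open symbols were not well above background. CXCL1, CXCL2 and CXCL3 of HSC3 (orange and brown) sit above those of FaDu (blue) in all channels, whereas IL6 of the 2 lines overlaps; CCL20 is open in FaDu. Levels of different genes come from different probes and are not to be compared.

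All 9 genes tested had a higher mean in HSC3, with a median log2 difference of 2.28, beside −0.08 over all genes tested. In 7 of 9 genes, each HSC3 control was at least 2-fold above each FaDu control, as in 6.91% of all genes. The exceptions were IL6 and NFKBIA. A difference in the means of at least 16-fold was found for 3 of 9 genes (CXCL1, CXCL2 and CXCL3), as for 0.362% of all genes. The lines did not overlap for 8 of 9 genes, as for 76.9% of all genes, so the absence of overlap was common on these arrays. Both HSC3 controls lay above both FaDu controls for these 8, as for 33.4% of all genes.

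**Figure D2:**
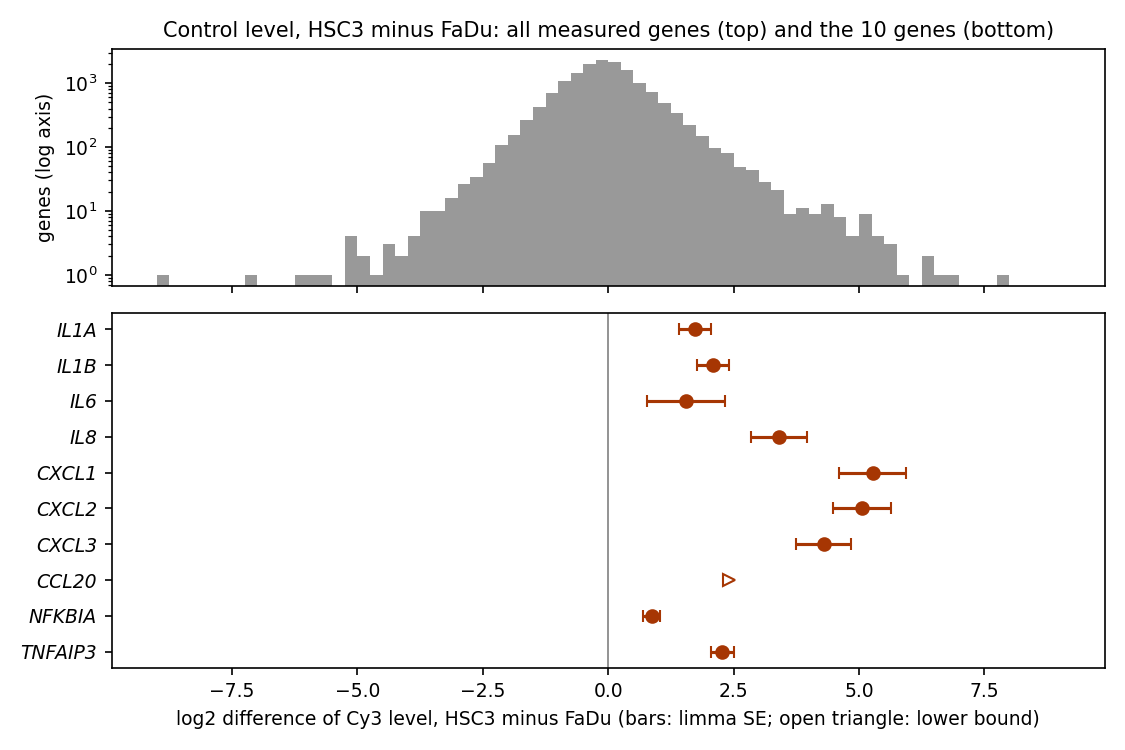
Log2 difference of control level, HSC3 minus FaDu (x axis), as a histogram of all genes tested (top, log y axis) and for each of the 10 genes (bottom), with bars for the limma SE and an open triangle for the lower bound of CCL20. The 9 measured genes lie between 0.87 and 5.27, and all genes centre on −0.08.

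The miRNA transfectants, in the Cy5 channel, gave the same direction for all 9 genes. CXCL2 was 27.4-fold, CXCL3 19.9-fold, CXCL1 15.9-fold, IL8 6.46-fold, TNFAIP3 4.70-fold and IL1A 3.28-fold higher in HSC3. These 6 genes were also those called in this channel by limma, with adjusted p between 0.00204 (CXCL3) and 0.0124 (IL1A). Of the 16755 genes well above background in Cy5 on all 4 arrays, 5612 were called in either direction. IL1B, 3.35-fold higher, was not called there, with a limma adjusted p of 0.0556, and neither were NFKBIA (1.70-fold, adjusted p = 0.0694) and IL6 (3.33-fold, adjusted p = 0.164). Here the 2 transfectants of a line carried different miRNAs and served as its replicates.

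The other genes of the pathway were counted from lists of 83 genes, all on the array, of which 59 could be tested. These lists, too, were chosen with earlier results of these data known. Between the control transfectants, 26 of the 59 were called higher in HSC3, 11 lower and 22 neither way, with a median log2 difference of 0.47. Over all genes 20.7% were called higher and 28.3% lower, the background for each list that follows. The receptors had 3 of 5 higher and none lower: IL1R2, a decoy receptor for IL-1, was 4.57-fold, IL6R, the binding chain for IL-6, 3.84-fold, and IL1RAP, the shared signalling chain of IL-1 receptors, 2.32-fold higher in HSC3. CXCR1, CXCR2 and CCR6, the receptors for IL8, CXCL1 to CXCL3 and CCL20, were not well above background in either channel of any array.

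Of the signalling components, 3 of 20 were called higher in HSC3 (RELB, MYD88 and TRAF6) and 7 lower, shares not far from those of all genes. The lower ones included RELA, the main activating subunit of NF-κB, at 1.72-fold, and IKBKB, the kinase that marks IκBα for destruction, at 2.10-fold. Their median log2 difference was −0.11, beside −0.08 for all genes. Of the other feedback genes, 4 of 12 were higher and 1 lower. TRAF1 was 5.28-fold, TNIP1, a partner of A20, 4.98-fold and ZC3H12A, an RNase that destroys cytokine mRNA, 4.03-fold higher in HSC3, whereas BCL3 was 1.81-fold lower.

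Other cytokines and chemokines were called higher for 4 of 7 and lower for 2. IL24, a cytokine of the IL-10 family, was 10.9-fold higher in HSC3 (limma adjusted p = 0.00119), whereas LIF, a cytokine related to IL-6 in signalling, was 5.77-fold lower (adjusted p = 0.000209). CXCL5, a further CXCR2 ligand, was 2.10-fold lower in HSC3, unlike CXCL1, CXCL2 and CXCL3. Other NF-κB target genes had 12 of 15 higher, 1 lower (TNFAIP2) and a median log2 difference of 1.62. MMP9, a matrix-degrading protease, was 27.0-fold higher (limma adjusted p = 0.000262), LTB, a ligand of the TNF family, 7.28-fold (5.5e-05) and ICAM1, the leukocyte adhesion receptor, 7.12-fold higher (0.000101).

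The controls of 1 line were not alike in these genes. In HSC3, 5 of the 9 tested genes differed at least 2-fold between the control of the miR-489 array and that of the miR-504 array, whereas 1.77% of all genes did. The 5 were IL6 (5.36-fold), CXCL2 (4.11-fold), CXCL3 (3.90-fold), CXCL1 (3.61-fold) and IL8 (2.58-fold), all higher on the miR-489 array, as were 1.05% of all genes. CCL20, outside the genes tested in both lines, was 1.97-fold higher on that array. IL1B was 1.60-fold and IL1A 1.44-fold higher there, whereas TNFAIP3 was 1.44-fold lower.

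In FaDu, 3 of the 9 genes differed at least 2-fold between the controls, beside 0.674% of all genes. CXCL1 was 3.01-fold and IL8 2.84-fold higher in the control of the miR-504 array, whereas IL6 was 2.82-fold higher in that of the miR-489 array. For IL6, IL1A and IL1B, which have 10 spots each, the levels of the 10 spots of 1 control, relative to the median of the channel, did not overlap those of the other in either line. As signals, the IL6 spots of the HSC3 controls ran from 752 to 1074 and from 171.5 to 242.5, whereas the IL1A spots of the HSC3 controls overlapped, from 2544 to 3258.5 and from 2085.5 to 2684. What the spread between the controls came from was not tested.

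The transfectants hybridised to the same arrays showed this less in HSC3. There, by the brightest probe of each gene, only IL6 differed at least 2-fold between the miR-489 and miR-504 transfectants (4.08-fold), while 5.2% of all genes did. CXCL1 differed 1.21-fold, CXCL2 1.08-fold, CXCL3 1.20-fold and IL8 1.41-fold between them. The dimmer probe of CXCL3 gave more, 2.43-fold, and that of CXCL2 1.71-fold, so for CXCL3 the probes fell on either side of 2-fold. In FaDu, IL6 (log2 difference 1.59), IL1B (2.88-fold) and CXCL1 (2.68-fold) differed, beside 3.93% of all genes. IL6 was higher on the miR-489 array in both channels of both lines.

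**Figure D3:**
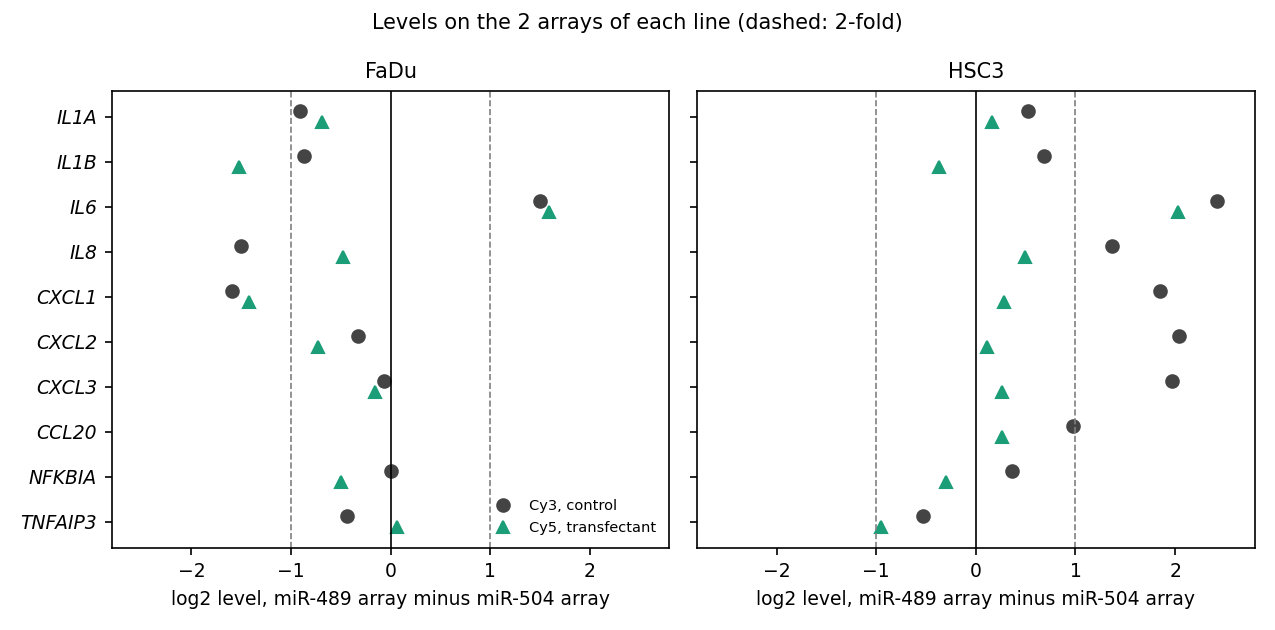
Log2 level on the miR-489 array minus that on the miR-504 array (x axis) for the controls (circles) and the transfectants (triangles) of each line; dashed lines mark 2-fold, and CCL20 of FaDu is left out as not measured. In HSC3 the controls for IL6, IL8, CXCL1, CXCL2 and CXCL3 lie beyond 2-fold and, except for IL6, the transfectants lie near 0.

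The log2 ratio of the transfectant to the control on its own array was at or past 2-fold lower for 4 of 10 genes in HSC3 with miR-489, and for no gene on the other arrays. The 4 were CXCL1 (−2.02), CCL20 (−1.60), IL8 (−1.52) and IL1B (−1.42). Of all genes, 7.98% were at least 2-fold lower on that array, 8.78% with miR-489 in FaDu, 5.9% with miR-504 in FaDu and 4.98% with miR-504 in HSC3. No gene of the 10 was at least 2-fold higher on any array, while 2.9% and 2.37% of all genes were in FaDu with miR-489 and miR-504, and 2.77% and 2.03% in HSC3. In the deposited log10 ratios of the scanner software and after loess, CXCL2, CXCL3 and NFKBIA also passed 2-fold lower on the HSC3 miR-489 array, which made 7 of 10. The share of all genes past 2-fold was not counted in those settings, so this count has no background. There was 1 array per condition, and these values have no replicate check.

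These 4 low ratios lay beside the higher of the 2 HSC3 controls. Against the mean of both HSC3 controls, none of the 10 genes was at least 2-fold lower with miR-489 (background 5.42%), and CXCL1 gave −0.97, IL8 −0.72, CCL20 −0.99 and IL1B −0.96. IL6, at 1.13, was then the only gene of the 10 at least 2-fold higher (background 5.82%). No gene was on the other arrays, where 6.08% and 5% of all genes were with miR-489 and miR-504 in FaDu and 5.15% with miR-504 in HSC3. By the same measure 3 genes were at least 2-fold lower with miR-504 in HSC3 (background 4.28%): CCL20 (−1.26), CXCL1 (−1.25) and IL8 (−1.21). In FaDu, IL1B with miR-489 was the only gene past 2-fold lower by that measure (−1.19, background 5.16%), and with miR-504 there was none (background 4.17%). This comparison was chosen after the controls had been seen to differ, and the part of the control in the ratios was not tested further.

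**Figure D4:**
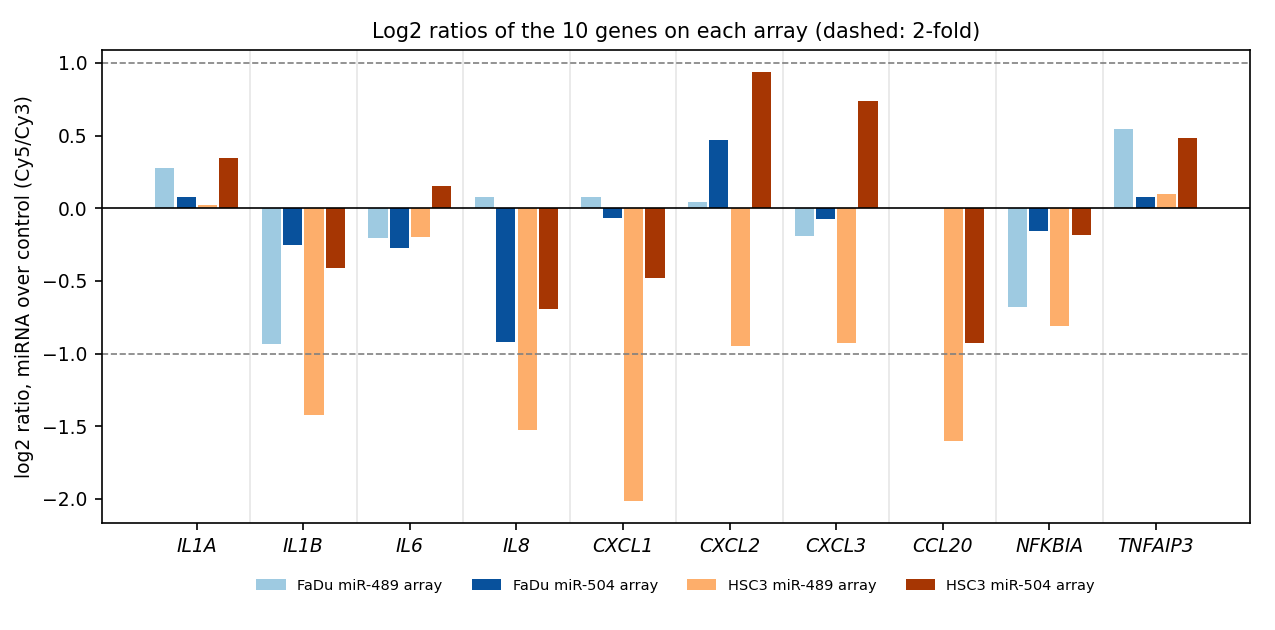
Log2 ratio of miRNA transfectant over control (y axis) for each of the 10 genes on each of the 4 arrays, with dashed lines at 2-fold; CCL20 was not measured in FaDu. With miR-489 in HSC3, 4 bars pass the lower line, the lowest being CXCL1 at −2.02, and none passes the upper line.

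Among the interleukins, IL1B was lower than the control of its own array on all 4 arrays. Its transfectant signals were 1870 with miR-489 and 5682 with miR-504 in FaDu, and 10264 and 13985 in HSC3. The log2 ratios were −0.93 and −0.25 in FaDu and −1.42 and −0.41 in HSC3, with an SD of 0.025 to 0.030 over 10 spots, which covers error within an array only. In both lines the ratio was lower with miR-489 than with miR-504. Against the mean of both controls of the line, IL1B gave −1.19 and 0.33 in FaDu and −0.96 and −0.59 in HSC3.

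IL1A did not follow IL1B. Its transfectant signals were 920 and 1552 in FaDu and 4426 and 4176 in HSC3, and its log2 ratios were 0.28, 0.08, 0.02 and 0.35. IL6 had transfectant signals of 294 and 104 in FaDu and 1255 and 325.5 in HSC3, with log2 ratios of −0.20, −0.27, −0.20 and 0.15. Although its level varied more than 2-fold between the arrays of each line, the IL6 ratio to the control on its own array stayed within 0.27 of 0 on all 4. Against the mean of both controls of the line it did not, at 0.72 and −0.87 in FaDu and 1.13 and −0.90 in HSC3. By that measure IL6 was called higher with miR-489 (log2 0.93, limma adjusted p = 0.0032) and lower with miR-504 (−0.88, adjusted p = 0.00452). Limma then called 8932 (miR-489) and 8342 (miR-504) of the 15731 genes tested. Both miRNAs of a line were set against the same mean control, so these calls do not stand apart from each other.

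IL8 had transfectant signals of 63 and 92.5 in FaDu and 626 and 470.5 in HSC3. Its log2 ratio was 0.08 with miR-489 and −0.92 with miR-504 in FaDu, and −1.52 and −0.69 in HSC3. Only the FaDu miR-489 array did not lie below 0.

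CXCL1 had transfectant signals of 855 and 2405 in FaDu and 26882 and 23462 in HSC3, with log2 ratios of 0.08, −0.07, −2.02 and −0.48. The FaDu ratios were near 0 and both HSC3 ratios below it. CXCL2 had transfectant signals of 277 and 482.5 in FaDu and 11131 and 10904 in HSC3.

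The log2 ratios of CXCL2 were 0.04 and 0.47 in FaDu and −0.95 and 0.94 in HSC3, so the HSC3 arrays pointed opposite ways. The other CXCL2 probe gave 0.34, 0.26, −0.89 and 0.50. CXCL3 had transfectant signals of 64, 75, 1611 and 1424 and log2 ratios of −0.19, −0.08, −0.93 and 0.74. It had the signs of CXCL2 in HSC3, but in FaDu it lay slightly below 0 and CXCL2 above. The dimmer CXCL3 probe, measured only in HSC3, gave −1.14 with miR-489 and −0.31 with miR-504, and so differed in sign from the brighter probe on the miR-504 array.

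CCL20 had transfectant signals of 83 and 73 in HSC3, with log2 ratios of −1.60 and −0.93. Its FaDu transfectants, at 7 on both arrays, were not well above background, and no ratio is given. CCL20 was thus lower with both miRNAs in the line in which it was measured, at signals close to background.

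NFKBIA, the inhibitor, was lower than the control of its own array on all 4 arrays. Its transfectant signals were 9127 and 13524 in FaDu and 18187 and 23779 in HSC3. Its log2 ratios were −0.68 and −0.81 with miR-489 in FaDu and HSC3 and −0.16 and −0.18 with miR-504, so that the 2 lines gave nearly the same value for each miRNA. The single NFKBIA spot had been scaled up from the scan at lower gain in Cy3 on the HSC3 miR-489 array and in Cy5 on the HSC3 miR-504 array, so each HSC3 ratio sets a scaled against an unscaled channel, and the part of this in the ratios was not tested. TNFAIP3 lay above 0 throughout, with transfectant signals of 406, 409, 1474.5 and 3012 and log2 ratios of 0.55, 0.08, 0.10 and 0.48. Its dimmer probe differed from it in sign on 2 arrays, with −0.31 for miR-504 in FaDu and −0.05 for miR-489 in HSC3, and gave 0.19 for miR-504 in HSC3.

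Across the genes measured, the median log2 ratio was 0.04 and −0.08 in FaDu with miR-489 and miR-504 (9 genes), and −0.94 and −0.01 in HSC3 (10 genes). The median of all genes was between −0.03 and −0.01 on the 4 arrays. Of the genes measured, 8 of 10 lay below 0 in HSC3 with miR-489, whereas 4 of 9 did with miR-489 and 6 of 9 with miR-504 in FaDu, and 5 of 10 with miR-504 in HSC3.

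When the lines served as the 2 replicates of each miRNA, 2 of 9 genes were called by limma in miR-489 transfectants against controls, both lower, whereas it called 58% of all genes in either direction and 27.6% lower. IL1B was 2.26-fold lower (log2 −1.18 ± 0.13, SE, limma adjusted p = 0.00206) and NFKBIA 1.68-fold lower (log2 −0.74 ± 0.08, adjusted p = 0.00182), each in 2 of 2 arrays. With the cell line as a block, CXCL1 was called too (−0.97, limma adjusted p = 0.0305), although its FaDu array gave 0.08. Since Cy5 always carried the miRNA, a dye effect of a probe and the miRNA cannot be told apart in this contrast. The share of all genes called exceeded the share of these genes.

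For miR-504 against controls, limma called 0 of 9 genes, beside 51.2% of all genes. At an unadjusted p under 0.05, CXCL2 alone passed, at log2 0.70 ± 0.25 (SE, limma adjusted p = 0.0663). Its other probe gave 0.38 and did not pass (limma unadjusted p = 0.232). With the cell line as a block, IL1B was called lower (−0.33, limma adjusted p = 0.0402). Against the mean of both controls, where limma called 8342 of all genes, TNFAIP3 (0.68) was called besides IL6 and CXCL2 was not.

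The contrast between the miRNAs, in which a dye effect common to the arrays cancels, called 0 of 9 genes by limma, and 1.16% of all genes. At an unadjusted p under 0.05, 3 of 9 passed, beside 18% of all genes. NFKBIA was lower with miR-489 than with miR-504 by a log2 difference of −0.58 (95% interval −0.87 to −0.29, limma adjusted p = 0.0976), IL1B by −0.84 (−1.33 to −0.36, adjusted p = 0.119) and CXCL2 by −1.16 (−2.06 to −0.26, adjusted p = 0.191). The other CXCL2 probe gave −0.66 (95% interval −1.67 to 0.36) and did not pass. After the normexp background correction NFKBIA was called. For IL1A the difference was −0.06 (95% interval −0.46 to 0.33) and for TNFAIP3 0.05 (−0.50 to 0.59).

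As Cy5 levels, without controls, the miR-489 transfectants differed from the miR-504 transfectants by −0.40 for NFKBIA, −0.95 for IL1B and −0.31 for CXCL2 (log2). Limma called 0 of the 9 genes and 0 of all genes in this comparison. IL6 gave 1.81 by that measure and −0.14 by the ratios. This comparison, too, was chosen after the controls had been seen.

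The response to a miRNA in FaDu was set against that in HSC3 with the miRNAs as replicates of a line. By limma 0 of 9 genes differed, and 0 of all 15731 genes. At an unadjusted p under 0.05, 0 of the 9 and 3.17% of all genes passed. The largest difference was that of CXCL1, 1.25 higher in FaDu on the log2 scale with a 95% interval of −0.14 to 2.65.

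None of the 59 pathway genes was called between the miRNAs, and 0 genes of the lists changed at least 2-fold in the same direction on all 4 arrays. Against controls, 21 were called higher and 8 lower with miR-489, and 19 higher and 10 lower with miR-504. These were 29 of 59 for each miRNA, beside 58% and 51.2% of all genes. Of the 12 feedback genes, 4 were called higher and 3 lower with each miRNA. Among them, TNIP1 was higher with both miRNAs (log2 0.98 and 0.95). NFKBIZ, an atypical IκB protein that NF-κB induces, was lower with both (−0.62 and −0.36). Here, too, a dye effect of a probe and the miRNA cannot be told apart.

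Over the 8 channels, the pattern of each gene was compared with those of 20751 probes well above background in all of them. The channels share arrays and fall into 2 lines, so that any gene higher in HSC3 scores high, and the values are a description. The probe most like IL8 was that of CXCL1 (r = 0.990), followed by C17orf61 (0.985) and PLEKHA2 (0.982), and the probe most like CXCL1 was that of IL8, followed by IFI35 (0.987) and PLEKHA2 (0.986). CXCL2 was most like CXCL3 (0.996), CTSC (0.995) and AREG (0.994), and CXCL3 most like ENTPD7, CXCL2 and TTC28 (0.996 each).

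IL1A was most like ZNF79 (0.995), and IL1B was nearest, among probes with a gene symbol, to CA14 (0.986). NFKBIA was most like LAS1L (0.987) and TNFAIP3 most like TPM1 (0.996). IL6 was most like KCTD17 and POP4 (0.991 each). Its r with the other 8 genes lay between 0.427 (IL1B) and 0.743 (CXCL3), whereas those 8 genes had r of at least 0.773 with each other.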

How the data were processed

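RNA of FaDu and HSC3 cells transfected with a miRNA (Cy5) was hybridised with that of control transfectants of the same line (Cy3), 1 Agilent array for each of 4 conditions. The authors deposited unnormalised spot and local background intensities from Feature Extraction 9.5.3.1, whereas the methods of the study name a ScanArray scanner and DNASIS software. The deposited log10 ratios, and a deposited table equal to them (largest difference 0), had been detrended and dye-normalised (linear and LOWESS) by the scanner software. They served as an alternative.

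From each median spot intensity the median of its local background was subtracted. Outlier spots were left out and replicate spots averaged. Log2 ratios were centred on the median of probes well above background in both channels (0.58, 0.65, 0.58 and 0.44 removed, FaDu before HSC3 and miR-489 before miR-504), and control levels on the channel median. A gene took its brightest probe. A value not well above background gives a bound, set by its own signal or, if higher, by the lowest one marked well above background on that array. Over probes with at least 5 spots, the SD of replicate spots was 0.131 to 0.186 for Cy3 and 0.0523 to 0.0591 for ratios (log2).

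Limma was fitted, with 2 residual degrees of freedom, to the 20914 probes whose Cy3 signal was well above background on every array, and p-values were adjusted by Benjamini-Hochberg over all of them at 0.05. It was tested on simulated data with independent errors and no dye effect. That test cannot show how limma behaves with a dye effect or with paired arrays. The lines were the replicates of a miRNA, and same-line arrays pair the samples (correlation of deviations 0.14). The 2 controls of a line differed by an SD of 0.28 in FaDu and 0.35 in HSC3, against 0.25 and 0.20 expected from spots, and were counted as 2 samples. Since nothing says that they were separate cultures, p-values measure only the spread between these samples, which may be technical.

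The members and gene lists were chosen with earlier results of these data known. Named genes were all members, the 5 list genes with the largest control difference between lines, list genes called between the miRNAs or changed 2-fold on all arrays, and the 3 probes most like each member. Other list genes were named after their values were seen. Alternatives were the background correction (normexp with offset 50, or none), mean intensity, loess (span 0.3), other scalings, filters and gene summaries, a block and leaving out each array. Sequences are from RefSeq (GRCh38.p14), in which all 10 members matched. Statistics were run in R 4.3.3 with limma 3.58.1. Sequences and plots were handled in Python 3.11.15 (pandas 2.3.3, matplotlib 3.10.9).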

Additional observations from a re-analysis of the deposited data

Results flagged for a closer look

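With 1 miRNA, the FaDu and the HSC3 array pointed opposite ways for 5 pairs of gene and miRNA. Each direction rests on 1 array, and none of these differences was tested by itself. The FaDu values of IL8, CXCL1, CXCL2 and CXCL3 were near 0. With miR-489, the log2 ratio in FaDu minus that in HSC3 was 1.601 for IL8 (0.08 against −1.52), 2.096 for CXCL1 (0.08 against −2.02) and 0.9928 for CXCL2 (0.04 against −0.95). With miR-504, it was −0.4258 for IL6 (−0.27 against 0.15) and −0.8135 for CXCL3 (−0.08 against 0.74). In IL8, CXCL1 and CXCL2, the HSC3 control of the miR-489 array was 2.58-fold, 3.61-fold and 4.11-fold above the other HSC3 control, and the part of this in the values was not tested. Against the mean of both controls of the line, only CXCL3 with miR-504 kept opposite signs (0.11 in FaDu and −0.09 in HSC3). The other pairs then had the same sign in both lines, as IL8 with miR-489 (−0.50 and −0.72) and IL6 with miR-504 (−0.87 and −0.90).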

How the results depend on the processing

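The 8 genes called higher in HSC3 controls were called under each background, scaling, filter and probe alternative and without each array, and in the Cy5 channel 6 of them were. The limma count for miR-489 against control, 2 in the values reported, was 5 without background subtraction. It was 3 with normexp, loess, the deposited ratios or the deposited table. It was also 3 with no filter on dim probes, the cell line as a block or the mean of both controls. In the deposited ratios, IL6 was called lower (−0.30, limma adjusted p = 0.0453). Of all genes, 9131 were called in the values reported and 10183 without background subtraction. Without the FaDu miR-489 array the estimate of CXCL1 was −2.02, and without the HSC3 miR-489 array it was 0.08. For miR-504 against control, 0 became 1 with normexp, the deposited log10 ratios, the deposited table, no filter on dim probes, an unadjusted threshold or the cell line as a replicate block, 2 with loess or the mean of both controls, 3 without background subtraction and 0 to 3 without 1 array (3 without either miR-489 array). For miR-504, limma called 8050 of all genes in the values reported, 7713 with loess and 9341 without background subtraction. Between the miRNAs, 0 became 1 with normexp (514 of all genes) and 3 unadjusted (2829 of all genes). Against the mean of both controls, IL6 with miR-489 turned from −0.20 to 0.93 (limma adjusted p = 0.0032).

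Between the miRNAs, 0 of 59 pathway genes were called in the values reported. The count was 1 with normexp, without background subtraction, with the mean intensity and in the deposited ratios and table. Of all genes, 514, 384, 192 and 296 were called in these settings. Unadjusted, 12 of the 59 passed, beside 18% of all genes. Pathway genes called for the response between lines were 3 unadjusted, beside 3.17% of all genes. For miR-504 against control they were 5 to 30 without 1 array (5 without the FaDu and 10 without the HSC3 miR-504 array).

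The median log2 ratio of the genes in FaDu with miR-489 was −0.047 with normexp, −0.14 without background subtraction, −0.036 in the deposited ratios and table and −0.049 against both controls. In FaDu with miR-504 it was 0.016 without background subtraction, −0.15 with the mean intensity, −0.16 in the deposited ratios and table and 0.33 against both controls. In HSC3 with miR-489 it was −0.88 with normexp, −0.77 without background subtraction, −1.14 with loess, −1.13 in the deposited ratios and table and −0.28 against both controls. In HSC3 with miR-504 it was −0.16 with loess and in the deposited ratios and table, and −0.40 against both controls. The count at least 2-fold lower in FaDu with miR-489 was 1 with loess, in the deposited ratios and table and against both controls, and with miR-504 it was 1 with the mean intensity and in the deposited ratios and table. In HSC3 it was 7 with miR-489 with loess and in the deposited ratios and table and 0 against both controls, and with miR-504 it was 1 with the mean intensity and 3 against both controls. The shares of all genes at least 2-fold lower were counted only in the values reported and against both controls. Without background subtraction, FaDu controls were 2-fold apart for 1 gene. The comparisons with both controls, of Cy5 levels and of the controls under other settings were chosen after seeing the data. Except where a change of threshold, of the filter or of the arrays used made the difference, the cause was not tested.

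With 1 array per condition the precision is limited by the number of arrays. IL8, CXCL3 and CCL20 were dim in FaDu, and CXCL1 in HSC3, and 1 channel of NFKBIA on each HSC3 array, rest on a rescaled scan. No dye was swapped. With an array left out, the lone array of its group was assumed to vary like the others.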
